A study of Mus musculus with 8 samples.

Results

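The Wnt ligand genes of the β-catenin class were followed in cultured embryonic mouse cochleas. They are the 10 genes Wnt1, Wnt2, Wnt2b, Wnt3, Wnt3a, Wnt6, Wnt7a, Wnt7b, Wnt10a and Wnt10b, taken by exact symbol from a table of 42775 genes, and each of the 10 was found. CHIR99021 cochleas were wild-type Swiss Webster cochleas explanted at E12.5, cultured for 24 h and then exposed to 10 µM CHIR99021 for 6 h (4 libraries). Control cochleas were the same explants given the DMSO vehicle for 6 h (4 libraries). The source label gives both groups as E14.0 cultures. The 4 libraries of a group were labelled as biological replicates, and nothing in the labels says how many cochleas or embryos went into each. Polyadenylated RNA was sequenced, and the values are CPM, a gene's reads scaled to the total assigned in that library.

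Wnt proteins are secreted, lipid-modified ligands. Porcn attaches the lipid, Wls carries the ligand to the cell surface, and the ligand then binds a Frizzled receptor together with Lrp5 or Lrp6. In the β-catenin branch this blocks the kinase GSK3, so that β-catenin escapes degradation and acts with Tcf/Lef factors on target genes. CHIR99021 inhibits GSK3 itself and so acts below the ligands and receptors. In the developing cochlea the β-catenin branch is known for supporting progenitor division and the medial side of the duct. The ligands in the list are those usually assigned to this branch, although the assignment can vary with the receptor a cell carries.

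The libraries held 64905007 to 75434130 assigned reads in CHIR99021 and 66483661 to 89269187 in control, and a single read was worth 0.0112 to 0.0154 CPM. Every value was a whole number of reads to within 0.001 read, so the reads behind each ligand are known. Replicates 1 and 4 of both groups had reads on more genes (22838 to 24249) than replicates 2 and 3 (20301 to 20698), a difference that is balanced between the groups, and the 5 ligand genes tested with limma were also fitted within those pairs of replicates. Otic epithelial markers were abundant, summing to 3297 to 3655 CPM in CHIR99021 and 3416 to 3598 CPM in control. Most of that sum was Oc90 (mean 2566 CPM in CHIR99021 and 2482 CPM in control). Without Oc90 it was 870 to 977 CPM in CHIR99021 and 912 to 1083 CPM in control. At a limma adjusted p under 0.05, 3 of 8 otic markers were lower (Sox2, Otx2 and Esrp1) and none was higher. Over all genes tested 21.4% were lower. Markers of mesenchyme, cartilage, glia, neurons, vessels and blood were present too. In such bulk samples fewer cells of a type and less RNA per cell cannot be told apart.

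The promoters of 3 ligand genes are shown. Wnt6 was taken because it rose with a smaller spread among CHIR99021 libraries than Wnt2b. Wnt1 was taken because it had no read in any library, and Wnt10b as its neighbour on the chromosome. Each sequence is the 250 bases before the RefSeq gene start on GRCm38.p6, read on the strand of the gene. The Wnt6 window lies at chr1:74771642-74771891 on the plus strand, the Wnt1 window at chr15:98789607-98789856 on the plus strand and the Wnt10b window at chr15:98778151-98778400 on the minus strand. Capitals mark CpG dinucleotides.
Wnt6: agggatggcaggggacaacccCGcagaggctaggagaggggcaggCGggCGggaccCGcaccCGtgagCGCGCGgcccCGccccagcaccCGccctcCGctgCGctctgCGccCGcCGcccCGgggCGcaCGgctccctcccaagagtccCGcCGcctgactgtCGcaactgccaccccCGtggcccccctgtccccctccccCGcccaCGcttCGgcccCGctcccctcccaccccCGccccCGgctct
Wnt1: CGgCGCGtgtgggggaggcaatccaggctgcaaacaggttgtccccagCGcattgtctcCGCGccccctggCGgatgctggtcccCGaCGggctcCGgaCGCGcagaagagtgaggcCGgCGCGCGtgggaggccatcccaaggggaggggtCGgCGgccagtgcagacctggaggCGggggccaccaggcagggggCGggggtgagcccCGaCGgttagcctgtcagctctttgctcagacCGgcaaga
Wnt10b: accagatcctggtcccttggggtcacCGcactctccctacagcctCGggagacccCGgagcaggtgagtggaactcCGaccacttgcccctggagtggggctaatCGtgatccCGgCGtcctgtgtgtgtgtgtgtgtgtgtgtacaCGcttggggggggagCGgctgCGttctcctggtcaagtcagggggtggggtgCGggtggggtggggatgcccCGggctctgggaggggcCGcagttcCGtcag

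The Wnt6 window held 28 CpG, the Wnt1 window 23 and the Wnt10b window 14, against a median of 6 over 32851 promoter windows of the same length. RefSeq windows were found for 8 of the 10 ligand genes (Wnt7b and Wnt10a had none). G and C made up 63.6% to 87.6% of these 8 windows, against a median of 52.4% over all windows. The 7-letter core of a Tcf/Lef site was searched on both strands, as CTTTGAA or its variant CTTTGAT and also as CTTTGTA or its variant CTTTGTT. None of the 8 windows held any of these forms, while 14.8% of all windows did. This says only that these letters are not in these windows. G and C made up 79.6% of the Wnt6 window, 71.6% of the Wnt1 window and 66.8% of the Wnt10b window. A link between these windows and the levels of the genes was not tested.

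Of the 10 ligand genes, 6 lie beside another Wnt gene (GENCODE M21, GRCm38). Wnt6 (chr1:74771892-74785322) is followed on the same strand by Wnt10a (chr1:74791516-74804179) after 6.193 kb. Wnt1 (chr15:98789857-98793837) and Wnt10b (chr15:98770712-98778150) are 11.7 kb apart on opposite strands. Wnt3 and Wnt3a each lie beside a Wnt ligand outside the list on chromosome 11, again on opposite strands. These are Wnt9b at 24.3 kb from Wnt3 and Wnt9a at 16.2 kb from Wnt3a. No annotated gene lies within any of the 4 gaps. Wnt2b (chr3:104945272-104961921), Wnt2 (chr6:17988940-18030585), Wnt7a (chr6:91363981-91411363) and Wnt7b (chr15:85535437-85582473) stand on the minus strand.

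Of the 10 ligand genes, 5 averaged at least 1 CPM over the 8 libraries and were tested with limma on log2(CPM + 1). Wnt6 and Wnt2b were higher in CHIR99021 at an adjusted p under 0.05 (Benjamini-Hochberg over all 14264 genes tested), where 12.3% of all genes tested were higher. None of the 5 was lower, where 21.4% of all genes tested were lower. Wnt2, Wnt7a and Wnt7b did not pass. With the replicate number as a block Wnt7b passed as lower (limma adjusted p = 0.0273), where 26.1% of all genes tested did. Wnt1, Wnt3, Wnt3a, Wnt10a and Wnt10b were under 1 CPM and are given with their reads. Fold changes on the log2(CPM + 1) scale understate the change of genes with low values, and the median over all genes tested was -0.05.

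**Figure D1:**
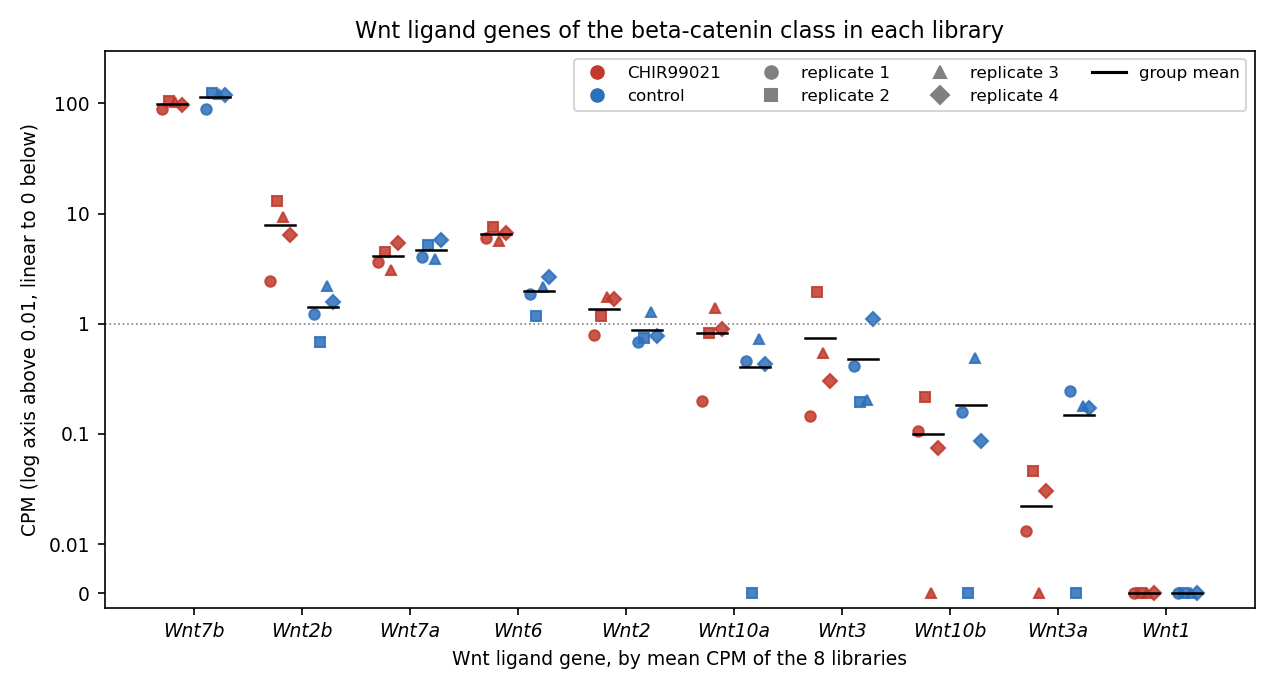
CPM of the 10 Wnt ligand genes in each library, on an axis that is logarithmic above 0.01 CPM and linear below it. Points are libraries (red CHIR99021, blue control, shapes for replicates), black bars are group means and the dotted line is 1 CPM. Wnt6 and Wnt2b are the only tested ligand genes whose groups do not overlap, and Wnt1 is at 0 in all 8 libraries.

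Wnt6, a ligand known from surface ectoderm and from developing kidney, was measured at 5.94, 7.58, 5.65 and 6.66 CPM in CHIR99021 replicates 1 to 4, against 1.86, 1.17, 2.16 and 2.68 CPM in control replicates 1 to 4. Every CHIR99021 library was above every control library, and the lowest CHIR99021 library was above the highest control by more than the whole range of the controls. The means were 6.46 ± 0.859 CPM in CHIR99021 and 1.97 ± 0.630 CPM in control (SD, n = 4 each), a ratio of 3.28. The log2 fold change was 1.35 (95% confidence interval 0.98 to 1.71, limma adjusted p = 0.00016). These values rest on 1788 reads in CHIR99021 and 641 in control. On the reads themselves, without the added 1 CPM, edgeR gave a log2 fold change of 1.77 (adjusted p = 0.000295). An antisense gene that overlaps Wnt6, Gm29539, stood at 0 to 0.0301 CPM in CHIR99021 and 0 to 0.0112 CPM in control.

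Wnt2b, which acts with Wnt2 in specifying the lung and is also known from the margin of the retina, was measured at 2.45, 13.0, 9.33 and 6.41 CPM in CHIR99021 replicates 1 to 4, against 1.23, 0.677, 2.22 and 1.57 CPM in control replicates 1 to 4. Replicates 2 and 3 were the highest CHIR99021 libraries, and replicate 1, the lowest, was close to control replicate 3, although the groups did not overlap. The means were 7.79 ± 4.46 CPM in CHIR99021 and 1.43 ± 0.646 CPM in control (SD, n = 4 each), a ratio of 5.47. The log2 fold change was 1.72 (95% confidence interval 0.92 to 2.53, limma adjusted p = 0.00452), and edgeR on the reads gave 2.5 (adjusted p = 0.00269).

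The 2 ligand genes that rose differed in how uniform they were among the CHIR99021 libraries. Among CHIR99021 libraries the highest Wnt2b value was 5.29 times the lowest, and 0.463% of all genes tested had a larger SD within CHIR99021 on the log2 scale. For Wnt6 that share was 30.1%. Within replicates 1 and 4 alone Wnt2b had a log2 fold change of 1.08 (limma adjusted p = 0.0456), and within replicates 2 and 3 alone 2.37 (adjusted p = 0.00423). The difference between these pairs of replicates was not tested. For non-overlap in the higher direction, as in Wnt6 and Wnt2b, the background was 12.7% of all genes tested, and for the lower direction, where no tested ligand gene was found, it was 20.6%.

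**Figure D2:**
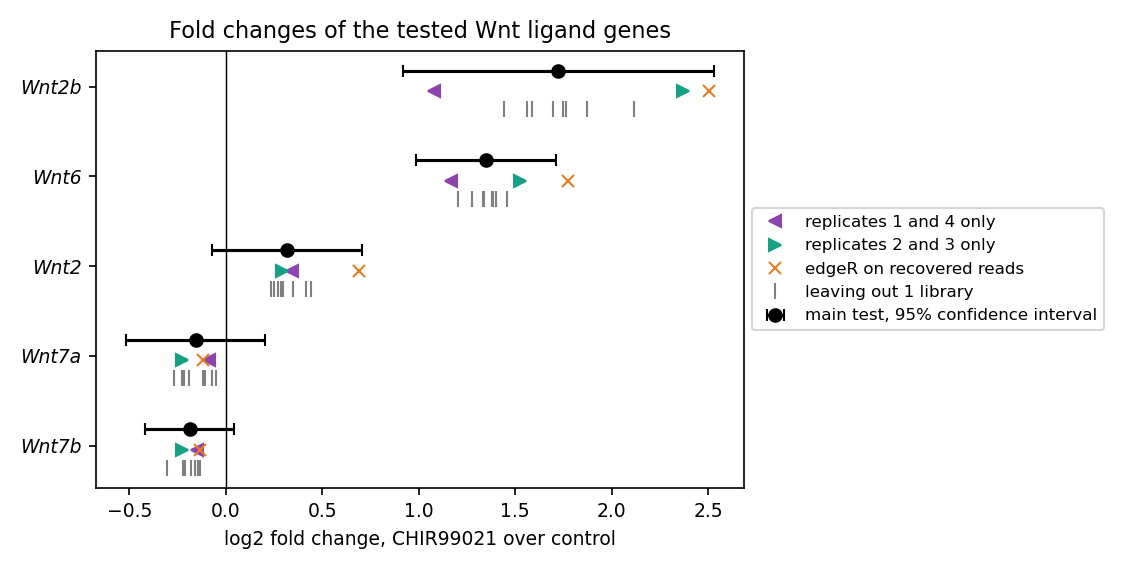
Log2 fold change of CHIR99021 over control for the 5 tested Wnt ligand genes. Black points with bars are the limma estimate and its 95% confidence interval, triangles the estimates within replicates 1 and 4 and within replicates 2 and 3, crosses edgeR on the reads and grey ticks the estimates with 1 library left out. Wnt2b (1.08 to 2.37 between the pairs of replicates) varies more than Wnt6, and the intervals of Wnt2, Wnt7a and Wnt7b include 0.

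Wnt7b, known for its part in lung growth and in the vessels of the brain, was by far the most abundant of these ligands. It was measured at 88.3, 106, 103 and 96.6 CPM in CHIR99021 replicates 1 to 4, against 88.1, 123, 122 and 119 CPM in control replicates 1 to 4. Control replicate 1 lay below all 4 CHIR99021 libraries and the other 3 controls lay above all 4. The means were 98.6 ± 7.92 CPM in CHIR99021 and 113 ± 16.9 CPM in control (SD, n = 4 each). The log2 fold change was -0.19 (95% confidence interval -0.42 to 0.04, limma adjusted p = 0.196). With the replicate number as a block the same estimate had an adjusted p of 0.0273 (limma), and Wnt7b then counted as lower, where 26.1% of all genes tested were. Without control replicate 1 the log2 fold change was -0.30 (limma adjusted p = 0.00890). An antisense gene that overlaps Wnt7b, AU022754, stood at 3.54 to 6.42 CPM in CHIR99021 and 3.18 to 8.02 CPM in control. The strand setting of the authors' counting is not given in the sources used here.

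Wnt7a, the close relative of Wnt7b that patterns the back of the limb, was measured at 3.66, 4.44, 3.07 and 5.38 CPM in CHIR99021 replicates 1 to 4, against 4.00, 5.22, 3.87 and 5.72 CPM in control replicates 1 to 4. The groups overlapped over most of their range. The log2 fold change was -0.16 (95% confidence interval -0.52 to 0.21, limma adjusted p = 0.50). By replicate number Wnt7a was lower in CHIR99021 in 4 of 4 pairs, and with the replicate block it still did not pass (limma adjusted p = 0.266). Wnt2, a ligand of lung and placenta, was measured at 0.795, 1.17, 1.75 and 1.68 CPM in CHIR99021 replicates 1 to 4, against 0.683, 0.737, 1.28 and 0.779 CPM in control replicates 1 to 4. CHIR99021 replicates 1 and 2 lay below control replicate 3, and its control mean of 0.871 CPM was under the 1 CPM minimum that its mean over all libraries passed. The log2 fold change was 0.32 (95% confidence interval -0.07 to 0.71, limma adjusted p = 0.192). By replicate number Wnt2 was higher in CHIR99021 in 4 of 4 pairs, and with the replicate block it did not pass (limma adjusted p = 0.110).

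The other 5 ligand genes averaged under 1 CPM and had 0 to 127 reads per library. Wnt1, which patterns the midbrain and, with Wnt3a, the dorsal side of the early ear, had 0 reads in each of the 8 libraries. The limit that a count of 0 allows (3 reads) was 0.0398 to 0.0462 CPM in CHIR99021 libraries and 0.0336 to 0.0451 CPM in control libraries. Wnt3a, which is required for posterior mesoderm, had 1, 3, 0 and 2 reads in CHIR99021 replicates 1 to 4, against 22, 0, 15 and 14 reads in control replicates 1 to 4. Control replicates 1, 3 and 4 were above every CHIR99021 library and control replicate 2 was at 0, so the groups overlapped. The difference in mean CPM was -0.128 (exact two-sided permutation test, p = 0.143, where the smallest p that 70 splits allow is 0.0286).

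Wnt10a, a ligand of tooth and skin development, had 15, 53, 99 and 60 reads in CHIR99021 replicates 1 to 4, against 41, 0, 60 and 35 reads in control replicates 1 to 4. The groups overlapped, and the difference in mean CPM was 0.422 (exact two-sided permutation test, p = 0.229), or 0.236 without CHIR99021 replicate 3. Wnt10a therefore did not pass a test in the libraries in which Wnt6, its neighbour at 6.193 kb, rose. Wnt3, a ligand needed for gastrulation, had 11, 127, 39 and 20 reads in CHIR99021 replicates 1 to 4, against 37, 13, 17 and 90 reads in control replicates 1 to 4. CHIR99021 replicate 2 and control replicate 4 held most of its reads. Wnt10b, known as an inhibitor of fat cell formation, had 8, 14, 0 and 5 reads in CHIR99021 replicates 1 to 4, against 14, 0, 41 and 7 reads in control replicates 1 to 4. For Wnt3 and for Wnt10b the exact two-sided permutation test gave p = 0.629. These 4 p-values are not adjusted.

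Levels of different genes were ranked after division by gene length (CPM per kb of merged exons). Wnt7b came first in both groups, at 20.1 ± 1.62 in CHIR99021 and 23.1 ± 3.44 in control (SD, n = 4 each). In CHIR99021 it was followed by Wnt6 (2.95), Wnt2b (1.85), Wnt7a (1.30), Wnt2 (0.598), Wnt10a (0.334), Wnt3 (0.240), Wnt10b (0.0292), Wnt3a (0.00811) and Wnt1 (0). In control Wnt7a came next (1.48), before Wnt6 (0.898), Wnt2 (0.386), Wnt2b (0.339), Wnt10a (0.163), Wnt3 (0.157), Wnt3a (0.0543), Wnt10b (0.0541) and Wnt1 (0). The libraries of neighbours in these orders overlapped except between Wnt7b and Wnt6 and between Wnt7a and Wnt2 in CHIR99021, and between Wnt7b and Wnt7a in control. Wnt6 and Wnt2b thus stood ahead of Wnt7a in the CHIR99021 means and behind it in the control means.

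Wnt7b made up 73.7% (69.5% to 78.4%) of the summed CPM per kb of the 10 ligand genes in CHIR99021 and 86.7% (84.8% to 90.2%) in control. Wnt6 made up 10.8% (9.08% to 11.8%) in CHIR99021 and 3.40% (1.92% to 4.26%) in control. Wnt2b made up 6.47% (2.54% to 9.91%) in CHIR99021 and 1.27% (0.578% to 1.83%) in control. These shares are parts of 1 total, so the lower share of Wnt7b is not separate from the higher shares of Wnt6 and Wnt2b. They depend on the length used, and with coding length Wnt6 made up 5.32% in CHIR99021 and 1.58% in control, and Wnt2b stood ahead of Wnt6 in the CHIR99021 order. The summed CPM of the 10 genes was 120 ± 14.1 in CHIR99021 and 123 ± 17.6 in control (SD, n = 4 each), while without Wnt7b it was 21.4 ± 6.49 in CHIR99021 and 10.2 ± 2.05 in control. These sums are not divided by length, and the total was mostly Wnt7b, as it was per kb. Without Wnt7b, Wnt6 and Wnt2b the other 7 genes summed to 7.17 ± 1.72 CPM in CHIR99021 and 6.79 ± 1.06 CPM in control. The ranges overlapped (4.92 to 8.64 CPM in CHIR99021 and 5.96 to 8.31 CPM in control). Wnt6 and Wnt2b were left out because they had passed as higher, so this overlap is no separate test. Most of this remainder was Wnt7a (mean 4.14 CPM in CHIR99021 and 4.70 CPM in control).

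**Figure D3:**
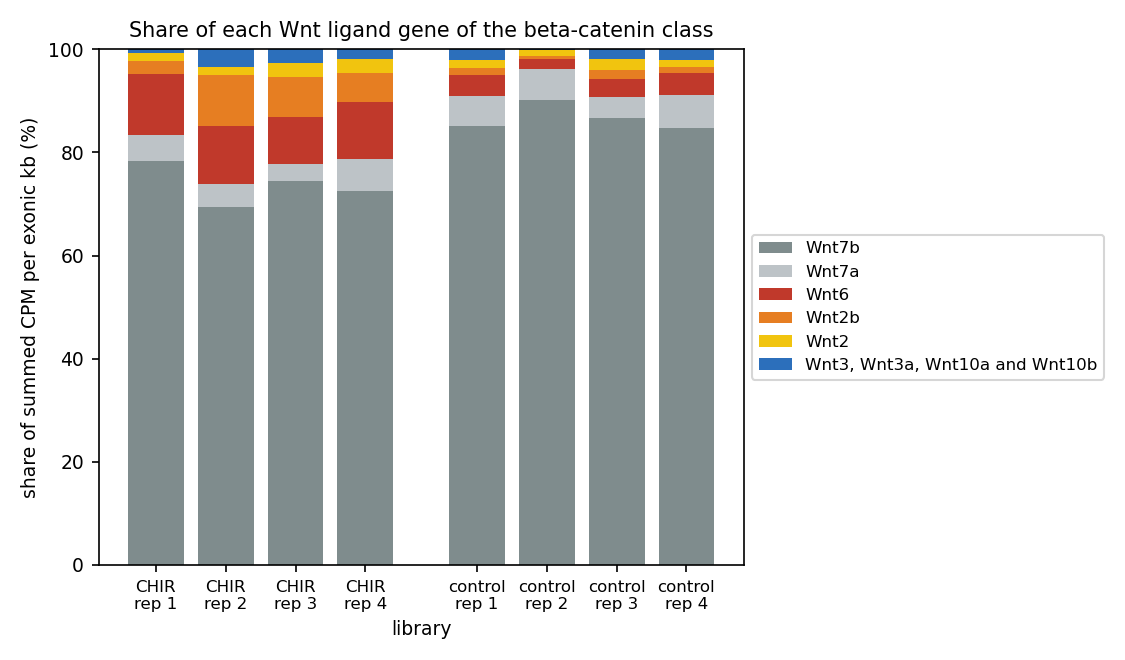
Share of each Wnt ligand gene in the summed CPM per kb of exons of the 10 genes, one bar per library, CHIR99021 left and control right. Wnt7b (dark grey) takes 69.5% to 78.4% of each CHIR99021 bar and 84.8% to 90.2% of each control bar, and the parts of Wnt6 (red) and Wnt2b (orange) are larger in every CHIR99021 library.

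The Wnt ligands outside this list were read from the same fit. Of these 9 genes 5 were tested, 1 was higher and 3 were lower in CHIR99021. The background for such calls, from the full set of 14264 genes in the fit, was 12.3% for higher and 21.4% for lower. Wnt5b rose (15.1 ± 1.87 CPM in CHIR99021 and 9.21 ± 1.26 CPM in control, SD, n = 4 each, log2 fold change 0.66, limma adjusted p = 0.00160). Wnt4, needed for kidney tubules, fell (13.0 ± 1.97 CPM in CHIR99021 and 24.2 ± 4.39 CPM in control, log2 fold change -0.85, limma adjusted p = 0.000897). Wnt5a, a ligand of planar polarity, fell by 0.40 on the log2 scale and Wnt9a, at 6.48 ± 0.561 CPM in CHIR99021 and 12 ± 1.35 CPM in control, by 0.79 (limma adjusted p = 0.000902 for Wnt5a and 0.000267 for Wnt9a). Wnt11 was level at 2.63 CPM in CHIR99021 and 2.61 CPM in control. Of the neighbours on chromosome 11, Wnt9a fell while Wnt3a, with 6 reads in CHIR99021 and 51 in control, did not pass a test, and Wnt9b had 0, 16, 0 and 3 reads in CHIR99021 replicates 1 to 4, against 3, 0, 0 and 2 reads in control replicates 1 to 4, so that most of its reads came from 1 library.

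**Figure D4:**
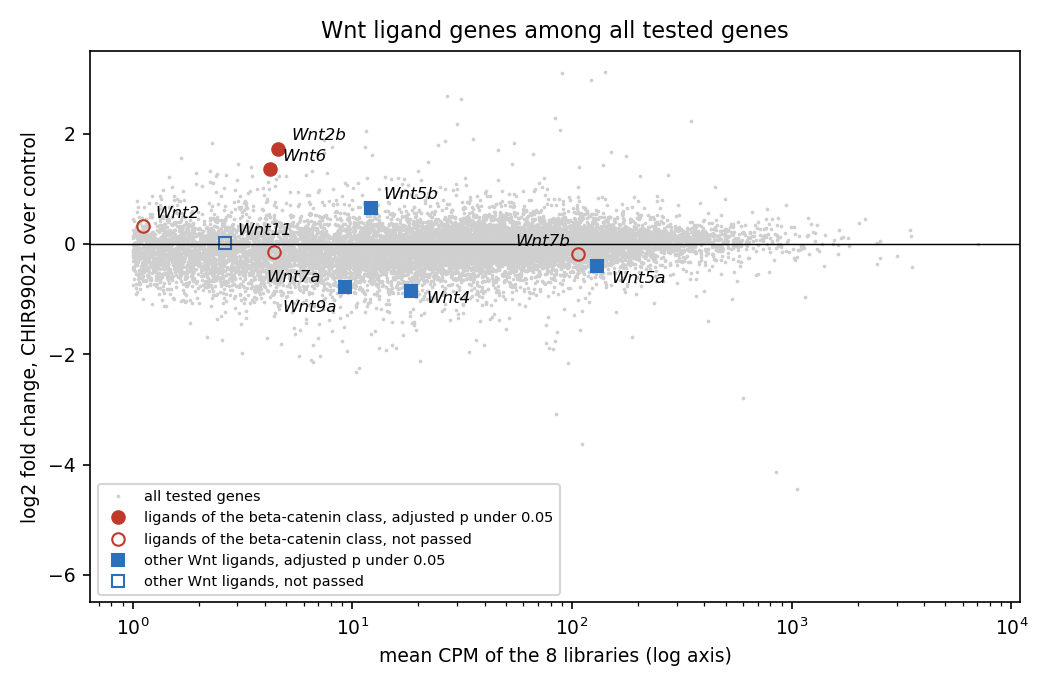
Log2 fold change of CHIR99021 over control against the mean CPM of the 8 libraries (log axis). Grey points are the tested genes, red circles the 5 tested ligand genes of the β-catenin class and blue squares the 5 other tested Wnt ligands, filled where the adjusted p is under 0.05. Wnt2b (1.72) and Wnt6 (1.35) have the highest fold changes of the 10 tested ligands and Wnt4 (-0.85) the lowest.

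Among the genes that make, modify or inactivate the ligands, Porcn, Wls and the protease gene Trabd2b did not pass the test (Trabd2b log2 fold change -0.11, limma adjusted p = 0.262). Notum, whose product removes the lipid from Wnt ligands, was the 1 of 4 that rose (56.6 ± 8.20 CPM in CHIR99021 and 14.5 ± 3.17 CPM in control, SD, n = 4 each, limma adjusted p = 8.89e-06). Of the 11 Frizzled and Lrp genes tested, Fzd10 rose by 1.62 on the log2 scale (101 ± 15.0 CPM in CHIR99021 and 31.9 ± 2.89 CPM in control, limma adjusted p = 2.55e-06), and Fzd2, Fzd4, Fzd7 and Fzd8 fell, Fzd4 by 0.54 (limma adjusted p = 0.00037), while edgeR on the reads called 3 of the list lower, without Fzd7. The median of the 11 was -0.11, beside -0.05 over all genes tested, of which 12.3% were higher and 21.4% lower. Adgra2 and Reck, which together let a cell respond to Wnt7a and Wnt7b, both fell. Adgra2 was at 109 ± 3.94 CPM in CHIR99021 and 161 ± 10.1 CPM in control (log2 fold change -0.56, limma adjusted p = 5.47e-05), and Reck at 55.8 ± 1.30 CPM in CHIR99021 and 68.4 ± 4.56 CPM in control (log2 fold change -0.29, adjusted p = 0.00379). Their ligand Wnt7b stood at -0.19 without passing, although it passed as lower with the replicate block.

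Of the secreted antagonists that bind Wnt ligands, 4 of 6 were tested, none was higher and 2 were lower. Among all genes tested 12.3% were higher and 21.4% lower. Frzb fell by 0.43 (limma adjusted p = 0.00563). Sfrp1 fell by 0.26 (limma adjusted p = 0.0355), its groups overlapped, and it no longer passed under TMM scaling, with edgeR, or without CHIR99021 replicate 1 or 4 or control replicate 2 or 3, where 1 gene of the list was lower. The list also had 1 lower gene without the filter, with DESeq2, with edgeR on DESeq2 size factors and within either pair of replicates. As a readout of the pathway in the same libraries, 9 of 10 common β-catenin target genes rose, with a median log2 fold change of 1.39. Tcf7 had the smallest p (log2 fold change 1.70, limma adjusted p = 1.31e-07), followed by Nkd1 (2.24), and Bmp4 was the 1 that fell (-0.78). These targets were chosen with earlier results of these data known.

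The genes most like Wnt6 over the 8 libraries by Pearson correlation of log2(CPM + 1) were D430019H16Rik (r = 0.99, and 0.92 after removal of the group means) and Pdha1 (r = 0.99, and 0.88). Those most like Wnt2b were Ece2 (r = 0.98, and 0.95) and Sec13 (r = 0.97, and 0.90). Their own changes were small. D430019H16Rik and Pdha1 passed as higher, at log2 fold changes of 0.37 and 0.26 (limma adjusted p = 0.00132 and 0.00341). Ece2 and Sec13 did not pass, at 0.19 and 0.13 (limma adjusted p = 0.0987 and 0.0583). The 4 were picked from all genes tested as the highest of their kind, and all 8 points share library and depth with the ligand.

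Markers of other cells were read beside these results, and in several lists 1 gene made up most of the difference in the sum. The counts of markers that passed stand beside 12.3% higher and 21.4% lower over all genes tested. Periotic mesenchyme markers summed to 775 to 798 CPM in CHIR99021 and 638 to 672 CPM in control, with 3 of 6 higher (Prrx1, Twist1 and Twist2) and Pou3f4 lower. Without Prrx1 the sum was 448 to 503 CPM in CHIR99021 and 463 to 504 CPM in control. Surface ectoderm and keratinocyte markers, of a tissue known to make Wnt6 in the embryo, summed to 1.91 to 3.91 CPM in CHIR99021 and 4.49 to 7.22 CPM in control, and 1 of 6, Krt15, was tested and fell. Without Krt15 the sum was 0.795 to 1.40 CPM in CHIR99021 and 1.24 to 1.62 CPM in control. Markers of the neural roof plate and hindbrain, where Wnt1 and Wnt3a are made, summed to 0.20 to 0.597 CPM in CHIR99021 and 0.361 to 1.43 CPM in control, with Olig3 and Hoxb1 at 0 in all 8 libraries.

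Neuron markers summed to 119 to 149 CPM in CHIR99021 and 188 to 210 CPM in control, with 1 of 6 tested lower, Isl1, which is not particular to neurons. Without Isl1 the sum was 54.0 to 82.1 CPM in CHIR99021 and 72.8 to 98.3 CPM in control. Glia markers summed to 470 to 503 CPM in CHIR99021 and 653 to 714 CPM in control, with 4 of 5 tested lower. Without Erbb3 the glia sum was 201 to 223 CPM in CHIR99021 and 243 to 279 CPM in control. The untested glia marker Foxd3 went the other way, at 1.59, 0.524, 0.796 and 0.662 CPM in CHIR99021 replicates 1 to 4. In control replicates 1 to 4 Foxd3 was at 0.583, 0.406, 0.396 and 0.482 CPM. Cartilage markers summed to 3542 to 4031 CPM in CHIR99021 and 4494 to 5828 CPM in control, with 3 of 5 lower. Macrophage markers summed to 8.14 to 11.2 CPM in CHIR99021 and 10.4 to 16.5 CPM in control, with 2 of 3 tested lower. Endothelial markers, of the vessels in which Adgra2 and Reck are known to act, summed to 68.2 to 84.7 CPM in CHIR99021 and 79.2 to 108 CPM in control, with 1 of 5 lower, Emcn (log2 fold change -0.89, limma adjusted p = 7.66e-05). Without Emcn they summed to 54.6 to 71.0 CPM in CHIR99021 and 54.3 to 78.4 CPM in control. The part of these shifts in the ligand and co-receptor results was not tested.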

How the data were processed

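The labels assigned the 8 libraries to CHIR99021 (4) and control (4). The authors mapped strand-specific 75 bp reads to GRCm38 with HISAT2. Their counter and its strand setting are not given in the sources used here. The deposited values are CPM per gene and library, and 12 deposited columns of the authors' own comparisons (fold changes, p-values and false discovery rates) were not used. Reads were recovered from the CPM step of 1 read, and 100% of values were whole within 0.001 read. Of 42775 genes, 15944 were at 0 in all libraries.

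Genes averaging 1 CPM or more over the libraries (14264) were fitted with limma 3.58.1 (trend) on log2(CPM + 1), with Benjamini-Hochberg adjustment over all of them. Members under 1 CPM were tested with an exact permutation test of mean CPM. Alternatives were a pseudocount of 0.1, other filters, TMM scaling, edgeR 4.0.16 (18116 genes) and DESeq2 1.42.0 on the recovered reads, a replicate block, pairs of replicates and leaving out each library. Models were tested on simulated data. Libraries of the same number deviated together (r = 0.51, 0.25, 0.35 and 0.34 for replicates 1 to 4 after removal of group means), so the numbers pair the samples by the data, although no label states a shared litter or day. Lengths and positions are from GENCODE M21. Adgra2 is listed under its older symbol and was matched by that symbol. Promoter sequences are from RefSeq.

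The ligand genes, the gene lists and the tests were chosen with earlier results of these data known. Genes were named by rule: the 10 ligand genes, other Wnt ligands beside one of them or at 1 CPM or more, the 2 genes of each pathway list with the smallest p, and the 2 genes most correlated with each ligand gene that passed. Porcn, Wls, Fzd2, Fzd7, Fzd8, Fzd9, Bmp4 and the single markers were named after their values were seen. P-values measure the spread between these libraries, and intervals that rest on reads cover counting error only.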

Additional observations from a re-analysis of the deposited data

Results flagged for a closer look

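In the control group 1 library stood apart from the other 3 for each of 2 ligand genes, by a gap of 0.841 (Wnt2) and 0.884 (Wnt7b) of the group's whole range, past Dixon's 95% limit for 4 values, which chance passes in about 1 of 20 groups. For Wnt2 it was control replicate 3, at 1.28 CPM against 0.683, 0.737 and 0.779 CPM in control replicates 1, 2 and 4. For Wnt7b it was control replicate 1, at 88.1 CPM against 123, 122 and 119 CPM in control replicates 2, 3 and 4. Without control replicate 1 Wnt7b passed the test as lower in CHIR99021 (log2 fold change -0.30, limma adjusted p = 0.00890), and without control replicate 3 Wnt2 did not pass. The rate of about 1 in 20 is for a single group of 4 values. It is not adjusted for the number of ligand genes and groups looked at.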

How the results depend on the processing

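Wnt6 and Wnt2b passed the test in the same direction under all 18 alternatives (Wnt6 at a log2 fold change of 1.17 to 1.78 and an adjusted p of up to 0.00997, Wnt2b at 1.08 to 2.52 and up to 0.0456). Wnt2 and Wnt7a passed in none of 18, and Wnt7b, at -0.30 to -0.13, in 2 of 18. Those 2 were the replicate block, which pairs the libraries by number and raised the number of ligand genes that were lower to 1, and the fit without control replicate 1. Leaving out 1 library at a time gave 0 to 1 ligand genes lower. The block changed no other call among the ligand genes, and among the pathway lists it added Fzd9 as lower. Of the receptor genes named as lower, Fzd2, Fzd7 and Reck did not pass in replicates 2 and 3 alone, Fzd8 did not in replicates 1 and 4 alone, and Fzd7 did not with edgeR. Over all genes, 1753 were higher and 3052 lower. DESeq2 on the reads gave 2760 higher, replicates 1 and 4 alone gave 1154 higher, and replicates 2 and 3 alone gave 611 higher and 1057 lower. TMM scaling gave 2446 higher and 2330 lower, so that 51.2% of calls were higher in place of 36.5%. The differences in mean CPM of 3 rarely read genes depended on single libraries. For Wnt10a it was 0.422, and from 0.236 (without CHIR99021 replicate 3) to 0.631 (without CHIR99021 replicate 1). For Wnt3 it was 0.255, and from -0.15 (without CHIR99021 replicate 2) to 0.466 with 1 library left out. For Wnt10b it was -0.0847, and from -0.146 to 0.0181 (without control replicate 3). With coding length in place of exon length the share of Wnt7b was 83.0% in CHIR99021 and 91.8% in control, and that of Wnt6 was 5.32% in CHIR99021 and 1.58% in control. An interaction of CHIR99021 with the letter F or M in the sample titles, added after seeing the data, gave an adjusted p of 1.00 (limma) for each of the 5 tested ligand genes, with 2 libraries per letter and group. The causes of these changes were not tested, and the fits on pairs of replicates also held fewer libraries. Depth limits Wnt1, Wnt3a and Wnt10b, whose values rest on 0 to 41 reads per library.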
